A study of Mus musculus with 30 samples.

Results

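Cells of the hindlimb and forelimb bud were compared at the start of culture on 6 microarrays, chosen by 1 measured value from the 30 arrays of the study. The 6 are the day 0 arrays in control medium, selected on Pitx1, which encodes a homeodomain transcription factor of the hindlimb. An array was called Pitx1-high when the brighter of its 2 probe sets lay above 8 on the scale log2(signal + 16), and Pitx1-low otherwise, which gave 2 Pitx1-high and 4 Pitx1-low arrays. The lowest Pitx1-high array stood at 9.43 and the highest Pitx1-low array at 6.15. Pitx1 itself is therefore no result, and every other gene of this day 0 comparison is given as a description without a test. Apart from 1 check of the labels, tests were made only on the 24 arrays of days 1 and 2, which the choice did not use and which were grouped by their labels.

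Limb buds of E10.5 embryos of the CD-1 mouse stock were dissociated to single cells, which were filtered, plated at high density, and harvested soon after attachment (day 0) or after 1 or 2 days. The labels name 3 populations: early (distal hindlimb), intermediate (distal forelimb) and late (proximal forelimb). Each had 2 arrays at day 0 in control medium, and 2 arrays at each later day in control medium and 2 with 20 ng/ml BMP4, a bone morphogenetic protein added at time 0. The material is pooled, with RNA from cultures of about 280 embryos per the protocol, which also mentions limb buds of stage E11.5 although no array is placed there. The hindlimb was sampled only distally, so limb type, dissected part and developmental stage cannot be told apart in any comparison of hindlimb with forelimb; against the intermediate population, which is distal as well, limb type and stage still cannot. The labels call the 2 arrays of a group biological replicates. In dissociated tissue, fewer cells of a type and less RNA per cell cannot be told apart.

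The labels and Pitx1 disagreed at day 0. The Pitx1-high arrays were labelled early replicate 1 (early 1) and intermediate replicate 2 (intermediate 2). The Pitx1-low arrays were labelled early replicate 2 (early 2), intermediate replicate 1 (intermediate 1), late replicate 1 (late 1) and late replicate 2 (late 2). In the 8 later arrays of each population, with and without BMP4, the same probe set ranged from 9.37 to 9.95 in early, from 4.75 to 6.28 in intermediate and from 5.22 to 6.66 in late, so it followed the labels at days 1 and 2. Grouped by label, day 0 gave 0 of 15139 genes past the threshold of 0.05 on the adjusted p for early against forelimb (limma, 400 genes at an unadjusted p under 0.05). The day 0 labels serve here only as array names: whether the names of the 3 replicate 2 arrays were exchanged among themselves was not tested, and an exchange would change which day 0 arrays share a population. Median signal was 35.5 to 44.9 on the day 0 arrays and 33.9 to 46.4 over all 30, on a common trimmed mean of 150, and the number of arrays limits the precision.

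Limb type is set early in the body wall that forms the buds. Tbx5, a T-box transcription factor, is required to start the forelimb, while Tbx4 and Isl1, a LIM homeodomain factor, act in the hindlimb together with Pitx1. The Hox clusters give position along the body axis, and the 5' genes of HoxA and HoxD also give position along the limb. Meis1 and Meis2 mark the proximal limb, and Hoxd13 and Hoxa13 the distal limb.

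Promoter sequence was available for 3 of the genes described next that also passed the later test, Tbx4 and Isl1 (high with Pitx1) and Epha3 (low with Pitx1). The 250 bases before each gene's start are shown because these genes parted the 6 arrays and passed the later test, with letters from RefSeq (GRCm38.p6), 5' to 3' on the gene's own strand. Capitals mark the motif TAATCC, the bicoid-type site known to be bound by Pitx proteins, and the T-box half-site motif GGTGTGA, both searched on both strands. The motifs share no letters in these windows.
Tbx4, chr11:85896515-85896764, plus strand: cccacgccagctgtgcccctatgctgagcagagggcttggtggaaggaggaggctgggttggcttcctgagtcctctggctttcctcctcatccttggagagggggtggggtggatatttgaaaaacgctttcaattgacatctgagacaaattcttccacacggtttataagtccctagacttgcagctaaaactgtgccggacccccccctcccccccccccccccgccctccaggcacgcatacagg
Isl1, chr13:116309689-116309938, minus strand: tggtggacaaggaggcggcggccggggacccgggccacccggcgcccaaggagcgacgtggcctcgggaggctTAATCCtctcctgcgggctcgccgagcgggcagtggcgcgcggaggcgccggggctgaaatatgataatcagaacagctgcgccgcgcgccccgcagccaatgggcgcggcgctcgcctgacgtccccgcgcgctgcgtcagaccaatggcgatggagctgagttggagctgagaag
Epha3, chr16:63864176-63864425, minus strand: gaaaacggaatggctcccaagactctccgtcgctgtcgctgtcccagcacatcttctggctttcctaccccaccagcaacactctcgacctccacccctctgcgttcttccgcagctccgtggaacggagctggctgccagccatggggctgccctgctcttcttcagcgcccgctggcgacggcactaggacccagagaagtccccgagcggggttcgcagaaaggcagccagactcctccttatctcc
TAATCC occurred 1 time in the Isl1 window, starting 177 bases before the gene's start, and in 6.25% of the windows of 32851 promoters. GGTGTGA occurred in none of the 3 windows and in 3.33% of all windows. A match describes letters only and was not tied to binding.

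Few genes parted the 6 arrays by a wide margin. All 3 tested limb type factors besides Pitx1 were parted at any margin, Tbx4 and Isl1 upward and Tbx5 downward. The lowest Pitx1-high array lay at least 1 above the highest Pitx1-low array for 6 genes (0.0396% of 15139 genes): Pitx1, which the choice fixed, and the 5 genes Tbx4, Hoxc10, Lin28a, Isl1 and Hoxc9. The reverse held for 2 genes (0.0132%), Tbx5 and Epha3. Leaving 1 array out gave 6 to 17 and 2 to 28 genes, the upper ends without early 1. The upper count was 6 without early 2, and the lower count was 20 without intermediate 2, 6 without late 2 and 5 without early 2. With any positive distance, all Pitx1-high arrays lay above all Pitx1-low arrays for 1064 genes (7.03%; 1063 besides Pitx1) and below them for 1354 genes (8.94%). These shares are the background for the counts of gene groups below.

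Tbx4 read 11.08 on early 1 and 10.46 on intermediate 2, against 6.79, 6.53, 7.13 and 6.09 on early 2, intermediate 1, late 1 and late 2. The groups did not overlap, and the 2 Pitx1-high arrays stood near or above the top of the labelled early cultures, where Tbx4 lay between 9.95 and 10.46 in control medium. In control cultures of days 1 and 2, Tbx4 was higher in hindlimb than in forelimb cultures by 4.05 ± 0.18 (SE, 4 early against 8 forelimb arrays, limma adjusted p = 6.08e-10). All 4 early arrays lay above all 8 forelimb arrays.

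Tbx5 ran the opposite way, at 4.47 and 4.68 on the Pitx1-high arrays and at 8.50, 8.47, 8.76 and 8.48 on the Pitx1-low arrays in the same order. On this scale a signal of 0 reads 4, so Tbx5 was close to the floor where Pitx1 was high. Its 4 Pitx1-low values lay close together, whatever their label. In the control cultures of days 1 and 2 it was lower in hindlimb by 3.33 on the log2 scale (difference -3.33 ± 0.22 SE, limma adjusted p = 1.18e-07), with early arrays at 4.73 to 5.82 and forelimb arrays at 8.32 to 8.93.

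Isl1 separated the sets and also the Pitx1-low arrays from each other. It read 7.29 and 7.77 on the Pitx1-high arrays, 5.98 on early 2 and 5.92 on late 1, and 4.41 on intermediate 1 and 4.50 on late 2. Thus 2 Pitx1-low arrays held an intermediate level and the other 2 lay near the floor. The later labelled cultures had 3 such levels too: 7.43 to 8.15 in early, 6.12 to 6.39 in late and 4.34 to 5.17 in intermediate control arrays. Hindlimb exceeded forelimb by 2.14 ± 0.18 (SE, limma adjusted p = 3.83e-06) and proximal exceeded distal forelimb by 1.36 ± 0.21 (SE, 4 against 4 arrays, limma adjusted p = 0.000964).

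**Figure D1:**
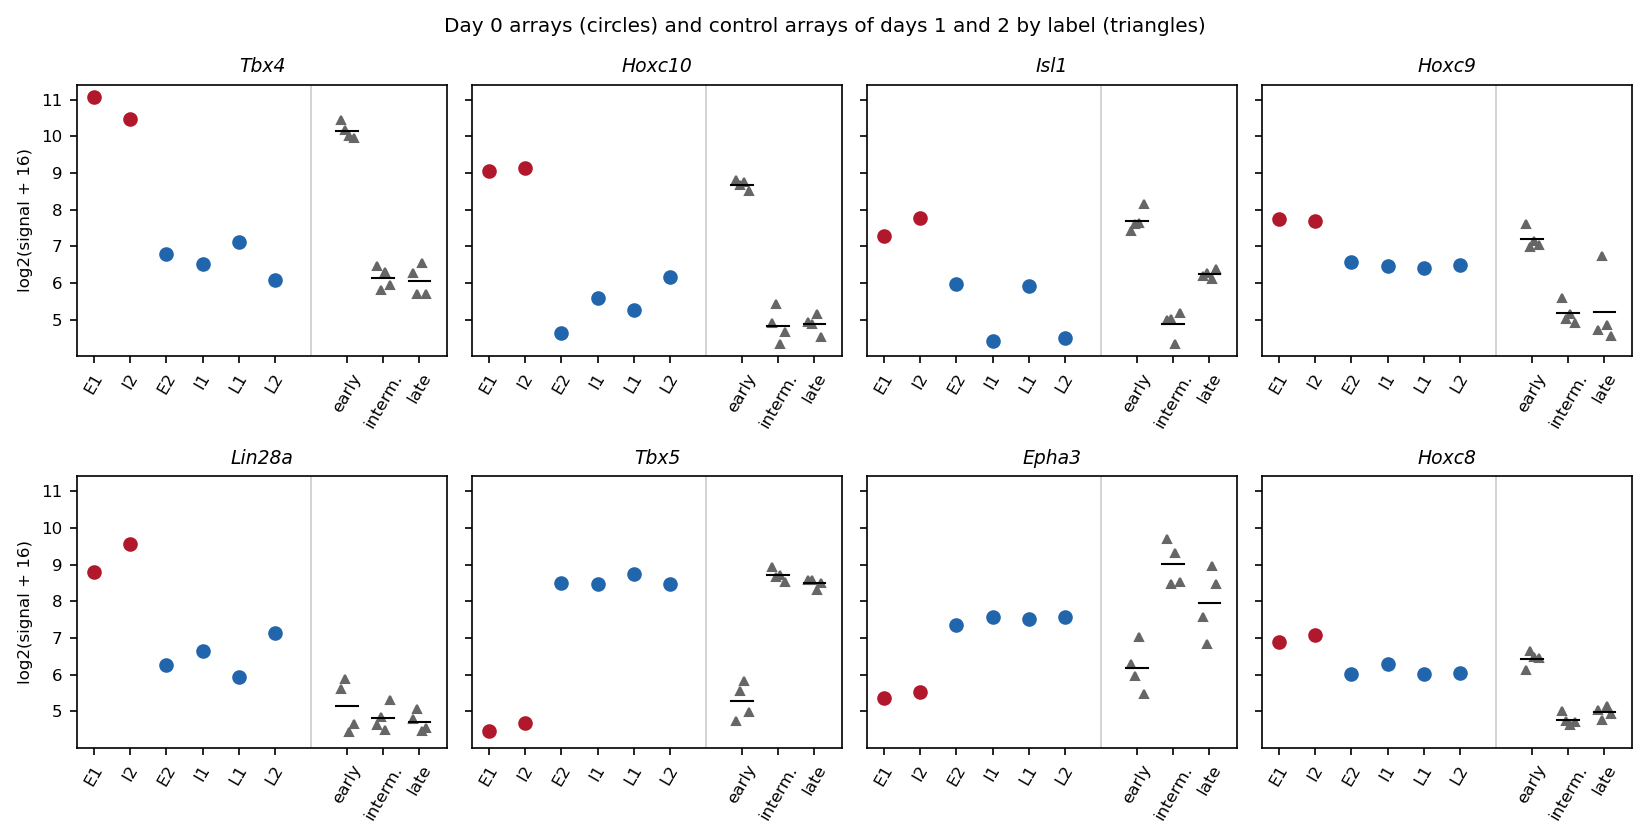
Signal of 8 genes as log2(signal + 16) on the day 0 arrays (circles, red Pitx1-high, blue Pitx1-low; E1 early 1, I2 intermediate 2, E2 early 2, I1 intermediate 1, L1 late 1, L2 late 2) and on the 4 control arrays per population of days 1 and 2 by label (triangles, bar at their mean). The red circles of Tbx4, Hoxc10, Isl1, Hoxc9 and Hoxc8 lie near the early cultures or above them, and those of Lin28a lie above all 12 cultured arrays.

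Epha3 encodes a receptor of the ephrin-A guidance system. It read 5.36 and 5.54 on the Pitx1-high arrays and 7.37, 7.57, 7.52 and 7.56 on the Pitx1-low arrays. The Pitx1-low values were close together although their labels name all 3 populations, and the other 3 probe sets of the gene also left the sets without overlap. In cultures its level was lower in hindlimb (-2.30 ± 0.33 SE, limma adjusted p = 0.00186) and, compared with distal forelimb alone, at -2.82 (limma adjusted p = 0.00062). With BMP4 the hindlimb minus forelimb difference was -1.60 (limma adjusted p = 0.00658).

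Lin28a, an RNA-binding protein of early embryonic cells that blocks let-7 microRNA maturation, was the gene of the wide-margin set that did not separate the cultures. It read 8.80 and 9.57 on the Pitx1-high arrays and 6.25, 6.63, 5.94 and 7.13 on the Pitx1-low arrays. A second probe set gave 8.69 and 8.76 against 6.42, 6.11, 6.11 and 6.41. On the 12 control arrays of days 1 and 2 Lin28a lay between 4.43 and 5.88, below every day 0 array. There the hindlimb minus forelimb difference was 0.37 ± 0.17 (SE, limma adjusted p = 0.588), and with BMP4 it was 0.56 (limma adjusted p = 0.0465). The day 1 early control arrays read 5.62 and 5.88, the highest of the 12. Its paralog Lin28b had a day 0 difference of 0.42 without overlap, from 5.56 and 5.77 down to 5.12 to 5.35.

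Pitx1 left out, 4 of the 5 genes high with Pitx1 and 2 of the 2 low with Pitx1 at a margin of 1 passed the later control test in the same direction. The background of that test was 0.291% of genes higher and 0.542% lower in hindlimb, that is 44 and 82 genes. At a margin of 0.5 the numbers were 6 of 18 (33.3%) and 5 of 43 (11.6%), and 0 passed in the opposite direction. At any margin they were 11 of 1063 (1.03%) and 22 of 1354 (1.62%), with 1 and 2 opposite. Most genes that parted the 6 arrays by a small margin therefore did not pass among the labelled cultures. At any margin the median later difference was 0.02 for the genes high with Pitx1 and -0.02 for those low with it.

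The reverse also occurred. Frem1, an extracellular matrix protein, was higher in hindlimb cultures by 1.32 ± 0.15 (SE, limma adjusted p = 0.000134), yet at day 0 it read 7.18 and 7.07 on the Pitx1-high arrays and 6.85, 7.26, 6.84 and 7.54 on the others, which overlap. Penk, the enkephalin precursor, passed at 1.29 ± 0.24 (SE, limma adjusted p = 0.0115) and overlapped at day 0, with 5.95 and 5.65 against 6.43, 5.88, 6.44 and 5.73. Hs3st3b1, a heparan sulfate sulfotransferase, passed lower at -1.54 ± 0.25 (SE, limma adjusted p = 0.00403) and also overlapped, with 6.71 and 7.03 against 7.49, 7.01, 7.68 and 6.85.

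**Figure D2:**
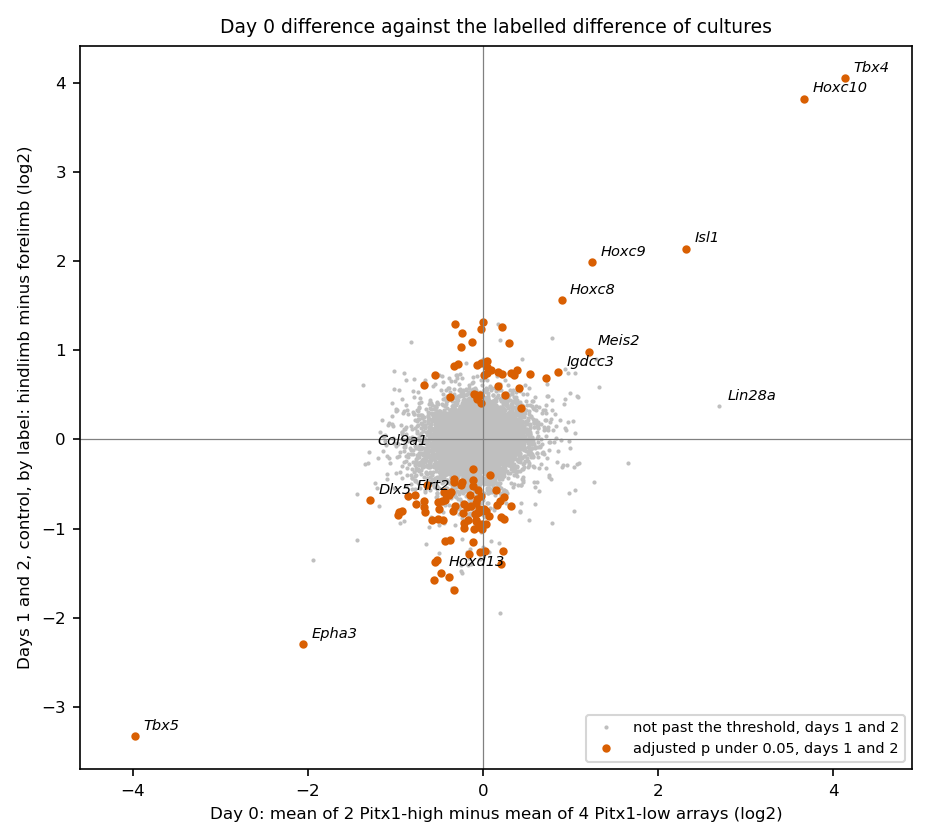
Each of the tested genes other than Pitx1 by its day 0 difference (horizontal, mean of 2 Pitx1-high minus mean of 4 Pitx1-low arrays, log2) and its difference between hindlimb and forelimb control cultures of days 1 and 2 by label (vertical, log2). Tbx4, Hoxc10, Isl1 and Hoxc9 lie far from 0 on both axes at upper right, Tbx5 and Epha3 at lower left, and Lin28a far from 0 on the day 0 axis only.

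The replicate numbers of the labels cut across the Pitx1 sets, since replicate 1 holds early 1 against intermediate 1 and late 1, and replicate 2 holds intermediate 2 against early 2 and late 2. Within replicate 1 the difference of Tbx4 was 4.25 and within replicate 2 it was 4.03. For Tbx5 the values were -4.14 and -3.81, for Hoxc10 they were 3.61 and 3.73, and for Epha3 -2.19 and -1.92. Lin28a gave 2.51 and 2.88, Isl1 2.13 and 2.52, and Hoxc9 1.31 and 1.18. These 7 genes were chosen by a margin of 1 over all day 0 arrays, so that margin within either number was fixed in advance. Their differences were of similar size within both numbers. A margin of 1 within both numbers also held for 3 further genes: Crym, a thyroid hormone binding protein (6.55 and 7.33 against 5.85, 4.21, 5.49 and 5.58), Nfia, a transcription factor (5.96 and 5.02 against 6.60, 7.98, 7.29 and 7.87), and Gm12446. In control cultures neither Crym nor Nfia passed (hindlimb minus forelimb -0.27 and -1.35, limma adjusted p = 0.922 and 0.15).

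Other genes with wide margins were less uniform in the cultures. Igdcc3, a surface protein of the immunoglobulin family, read 11.57 and 11.62 against 10.89, 10.48, 10.72 and 10.86 and passed later at 0.75 ± 0.15 (SE, limma adjusted p = 0.0184). Flrt2, a fibronectin and leucine-rich adhesion protein, read 7.72 on both Pitx1-high arrays and 8.61, 8.54, 8.54 and 8.61 on the others, and passed at -0.64 ± 0.11 (SE, limma adjusted p = 0.00734). Il17d, a secreted cytokine, was at 5.03 and 4.97 against 5.76, 6.21, 5.98 and 5.90 and passed at -0.81 ± 0.18 (SE, limma adjusted p = 0.0426), a call kept in 6 of 21 other settings. Among the 12 widest margins in each direction, Osbp2, Pyroxd2, Krtap21-1 and Gm7788 on the Pitx1-high side and Parp3, Dnajc22, Fgf18, Gsn, Gdf10, Gm5082 and Cep295nl on the Pitx1-low side did not pass. Another Pyroxd2 probe set parted the arrays the other way, at 5.11 and 5.46 with Pitx1 high against 6.31, 6.03, 5.94 and 5.81. The other Parp3 probe sets overlapped between the sets. Fgf18, a fibroblast growth factor, read 4.98 and 4.91 against 5.86, 6.02, 6.14 and 6.13, and its later difference was -0.44 (limma adjusted p = 0.788).

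The HoxC cluster on chromosome 15 divided into genes that followed Pitx1 and genes that did not. Of its 7 tested members, 3 were higher on both Pitx1-high arrays (42.9% against a background of 7.03%) and 0 lower, and the same 3 passed higher in hindlimb cultures. Hoxc10 read 9.05 and 9.13 against 4.65, 5.59, 5.28 and 6.16. Hoxc9 read 7.76 and 7.70 against 6.57, 6.48, 6.41 and 6.48. Hoxc8 read 6.90 and 7.07 against 6.02, 6.29, 6.01 and 6.05. The later hindlimb minus forelimb differences were 3.83 ± 0.22, 1.99 ± 0.32 and 1.57 ± 0.17 in the order Hoxc10, Hoxc9, Hoxc8 (SE, limma adjusted p = 9.76e-09, 0.00427 and 9.98e-05).

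The HoxC genes toward the 3' end behaved otherwise. Hoxc4 read 6.64 and 6.31 on the Pitx1-high arrays, 7.08 on early 2, 7.26 on late 1, 4.32 on intermediate 1 and 5.63 on late 2. Hoxc5 was at 5.76 and 5.66 with Pitx1 high, at 6.65 and 6.52 on early 2 and late 1, and at 5.29 and 5.41 on intermediate 1 and late 2. The Pitx1-high values thus fell between those of the Pitx1-low arrays. In the labelled cultures Hoxc4 and Hoxc5 were higher in proximal than in distal forelimb by 2.12 ± 0.19 and 2.00 ± 0.21 (SE, limma adjusted p = 8.96e-06 and 2.28e-05), and their hindlimb minus forelimb differences, -0.51 and -0.39, did not pass. With BMP4 those differences were 0.52 and 0.48, of the opposite sign (limma adjusted p = 0.0584 and 0.103). Hoxc6, next in the cluster, had a day 0 difference of -0.02. Hoxc13 lay between 4.76 and 5.59 on all 6 arrays.

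HoxB showed the same 2 patterns with a weaker upper end. Hoxb9 was its only member of 8 tested with all Pitx1-high arrays above the rest (12.5% against 7.03%), at 6.15 and 6.78 against 4.72, 5.56, 5.74 and 4.67. Its later difference of 0.90 ± 0.22 did not pass in control cultures (SE, limma adjusted p = 0.073) and was 1.69 with BMP4 (limma adjusted p = 0.000222). Hoxb3 read 7.04 and 6.92 with Pitx1 high, 8.50 and 8.59 on early 2 and late 1, and 5.83 and 6.36 on intermediate 1 and late 2. Hoxb5 followed the same order, with 5.35 and 5.03, then 6.52 and 6.41, then 4.49 and 4.52. Hoxb3 was higher in proximal than in distal forelimb cultures by 2.13 ± 0.19 (SE, limma adjusted p = 8.96e-06), whereas Hoxb5 at 0.67 ± 0.29 did not pass (SE, limma adjusted p = 0.3).

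The HoxD cluster on chromosome 2 ran against HoxC. Its 8 tested members had a median day 0 difference of -0.36, against -0.02 over all genes, with 2 lower on both Pitx1-high arrays (25% against 8.94%) and 0 higher. Hoxd8 read 8.37 and 8.30 against 8.88, 8.81, 8.99 and 8.98, and Hoxd9 read 9.68 and 9.80 against 9.96, 9.91, 9.99 and 10.00. The 4 Pitx1-low arrays were close together for both. A second Hoxd8 probe set overlapped, at 7.59 and 7.38 against 7.58, 8.04, 8.04 and 7.93. Hoxd8 passed lower in hindlimb cultures (-0.91 ± 0.12 SE, limma adjusted p = 0.000543) while Hoxd9 did not (-0.54 ± 0.13 SE, limma adjusted p = 0.0557).

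The 5' HoxD genes split the Pitx1-low arrays instead. Hoxd13 read 11.16 on intermediate 1 and 10.92 on late 2, against 9.37 on early 2, 9.51 on late 1, and 9.84 and 9.67 on the Pitx1-high arrays. Hoxd12 read 7.65 and 6.92, then 6.19 and 6.29, then 5.85 and 6.45 in that order of arrays. Hoxd10 and Hoxd11 had the same order, with intermediate 1 and late 2 highest (10.51 and 10.24 for Hoxd10, 9.32 and 9.12 for Hoxd11). In cultures 4 HoxD genes passed lower in hindlimb than in forelimb: Hoxd8, Hoxd10 (-0.60), Hoxd11 (-0.80) and Hoxd13 (-1.50 ± 0.34 SE, limma adjusted p = 0.0441). Of 21 other settings, the call held in 9 for Hoxd11 and in 6 for Hoxd13. Against distal forelimb alone, which like the hindlimb sample is distal by label, Hoxd13 was at -2.36 (limma adjusted p = 0.00371).

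Of 8 tested HoxA genes, 0 parted the 6 arrays in either direction, and the median day 0 difference was 0.09. Hoxa10 passed higher in hindlimb cultures at 0.60 ± 0.13 (SE, limma adjusted p = 0.0339), a call kept in 7 of 21 other settings, and at day 0 it read 9.44 and 9.72 against 9.34, 9.71, 9.11 and 9.45. Hoxa13, a factor of the distal limb, was highest on intermediate 1 (6.95) and late 2 (6.26), lowest on early 2 (5.38) and late 1 (5.42), and between them on the Pitx1-high arrays (6.19 and 5.92).

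**Figure D3:**
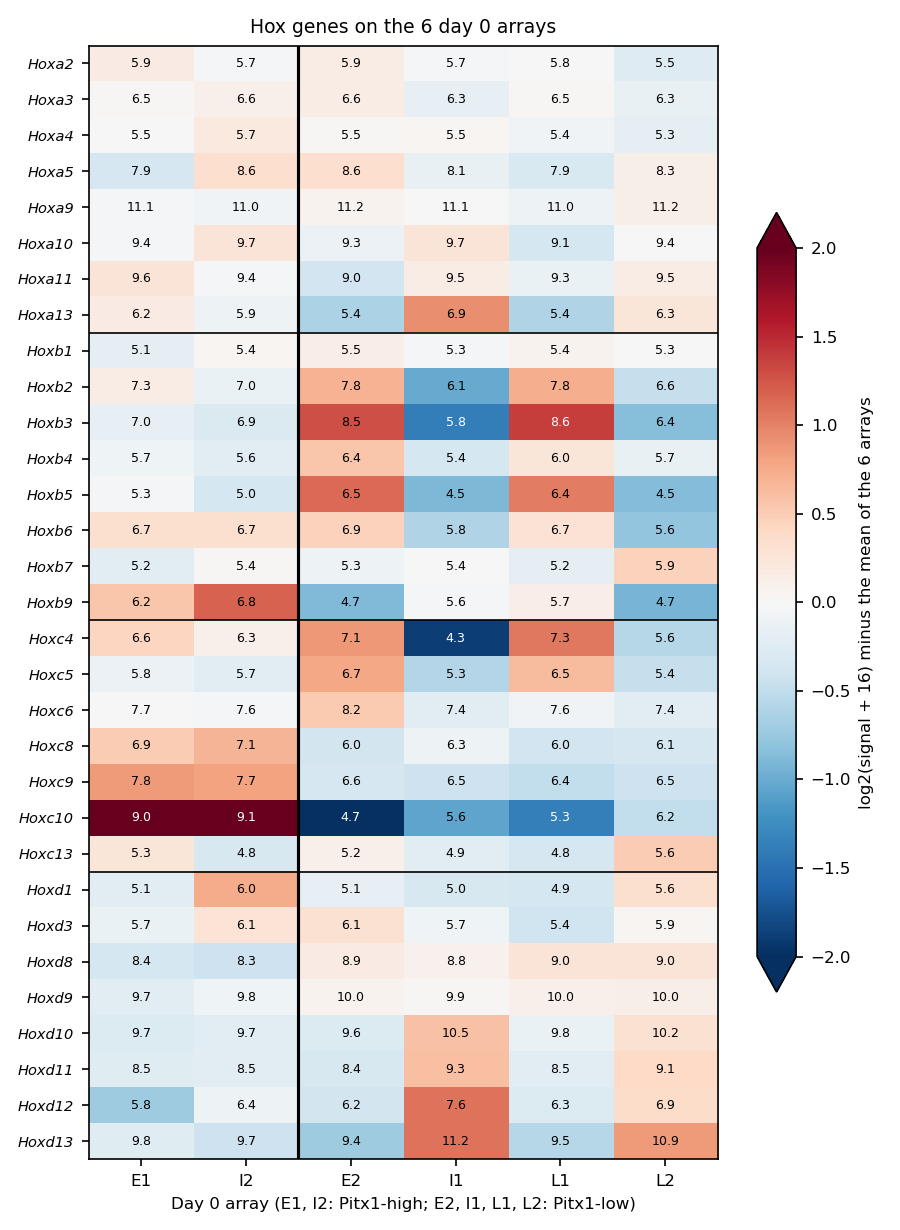
The tested Hox genes on the day 0 arrays, with HoxA, HoxB, HoxC and HoxD from top to bottom and 3' to 5' genes downward in each. Numbers are log2(signal + 16), colour is the distance from the gene's mean over the 6 arrays with the colour scale ending at 2 in each direction, and the vertical line parts the Pitx1-high arrays (E1, I2) from the Pitx1-low arrays. Hoxc8, Hoxc9 and Hoxc10 change colour at that line, while Hoxb3, Hoxc4 and Hoxd13 part E2 and L1 from I1 and L2.

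The Pitx1-low arrays differed among themselves in genes of the proximal and distal limb. Late 1 and early 2 were alike, and intermediate 1 and late 2 were alike, so this order followed neither the deposited population label nor the replicate number. Meis2 read 9.86 on early 2 and 9.60 on late 1, 6.97 on intermediate 1 and 7.53 on late 2, and 9.68 and 9.73 on the Pitx1-high arrays. Meis1 read 8.91 and 8.79, then 5.83 and 6.70, then 8.39 and 8.29 in that order. Both are homeodomain partners of Hox proteins, and both placed the Pitx1-high arrays with early 2 and late 1.

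The Iroquois factors Irx3 and Irx5, expressed in the proximal and anterior limb bud, had the same order. Irx3 read 10.43 on late 1 and a little more on early 2, 7.38 and 8.31 on intermediate 1 and late 2, and 10.30 and 9.95 with Pitx1 high. Irx5 read 9.18 and 8.77, then 6.16 and 6.74, then 8.69 and 8.66. Pkdcc, a secreted protein kinase needed for limb bone growth, read 11.04 and 10.99, then 8.15 and 9.21, with the Pitx1-high arrays between them at 10.17 and 10.03. Of the 14 tested proximal limb genes, 1 was higher on both Pitx1-high arrays (7.14% against 7.03%), the retinoic acid receptor Rarb (7.64 and 7.66 against 7.22, 5.99, 7.20 and 5.98), and 0 were lower.

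The labelled cultures gave a reference for that order. Proximal forelimb exceeded distal forelimb for 300 genes (1.98%) and was lower for 127 genes (0.839%) of 15139. Meis2 was among the former at 1.89 ± 0.26 (SE, limma adjusted p = 0.000286), with Meis1, Emx2, Shox2, Irx5 and Pkdcc, while Irx3 at 0.91 ± 0.26 did not pass (limma adjusted p = 0.0707) and Rarb passed lower in proximal (-1.14, limma adjusted p = 0.00991). Of the 300 genes, 224 were higher on late 1 than on intermediate 1 (74.7%, against 52.1% of all genes) and 47 of them by at least 1 (15.7% against 1.53%). For early 2 against late 2 the number was 203 (67.7% against 56.4%), with 34 by at least 1 (11.3% against 2.03%). For late 1 against early 2 it was 157 (52.3% against 47.2%), with 8 by at least 1. For late 2 against intermediate 1 it was 182 (60.7% against 48.2%), again with 8 by at least 1. The 127 genes lower in proximal forelimb gave shares closer to those of all genes: 52.8% of them were lower on late 1 than on intermediate 1 (47.9% of all genes) with a median difference of -0.03, and 48.8% were lower on early 2 than on intermediate 1 (44.7% of all genes) with a median of 0.004. These shares describe single arrays and have no test.

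The list of distal limb and fibroblast growth factor response genes stood higher on both Pitx1-high arrays for 4 of 20 tested members (20% against 7.03%) and lower for 0. Beside Lin28a and Lin28b these were Sall4, a zinc finger factor of limb outgrowth (9.53 and 9.91 against 8.50, 9.18, 8.09 and 9.37), and Fgf10, the mesenchymal growth factor that maintains the ridge (6.22 and 6.65 against 5.70, 6.16, 5.87 and 6.16). A second Sall4 probe set overlapped, at 7.14 and 7.42 against 6.77, 7.07, 6.61 and 7.22. None of these 4 genes passed in control cultures, where Sall4 was at 0.80 ± 0.19 (SE, limma adjusted p = 0.0583). The members that passed lower in hindlimb cultures were Lhx2 and Jag1. Lhx2, a LIM homeodomain factor of the distal bud, lay between 9.38 and 10.00 on the 6 arrays and was at -1.25 ± 0.16 in cultures (SE, limma adjusted p = 0.000621). Jag1, a Notch ligand, was highest at day 0 on intermediate 1 and late 2 (9.69 and 9.57), against 8.09 and 8.02 with Pitx1 high and 7.73 and 7.89 on early 2 and late 1.

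**Figure D4:**
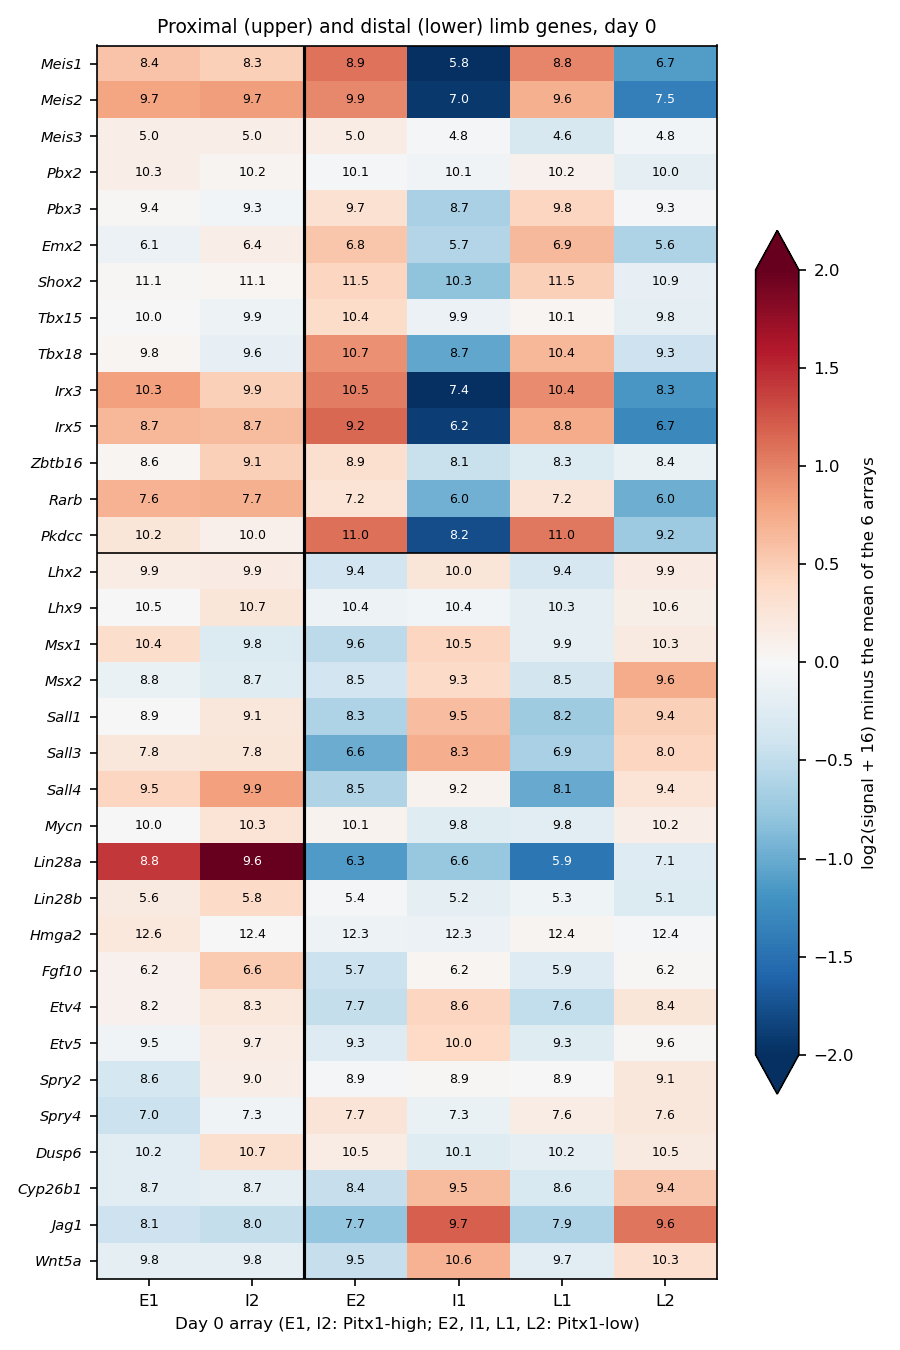
Tested genes of the proximal limb list (above the horizontal line) and of the distal limb and FGF response list (below it) on the day 0 arrays; numbers are log2(signal + 16), colour is the distance from the gene's mean over the 6 arrays with the scale ending at 2 in each direction. Meis1, Meis2, Irx3 and Irx5 are low on I1 and L2 only, and Lin28a is high on E1 and I2 only.

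Against distal forelimb cultures alone, 66 genes were higher in hindlimb (0.436%) and 100 lower (0.661%). Tbx4 stood at 4.01, Hoxc10 at 3.84, Isl1 at 2.82 and Tbx5 at -3.44 in that comparison. Shox2, a homeobox gene of the proximal limb skeleton, was at 1.34 there (limma adjusted p = 0.000435), while at day 0 it read 11.08 and 11.09 with Pitx1 high and 10.25 to 11.52 with Pitx1 low.

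Some cartilage genes were lower on the Pitx1-high arrays. Of 21 tested genes of the chondrogenic list, 6 were lower on both Pitx1-high arrays than on every other (28.6% against 8.94%) and 1 was higher (4.76% against 7.03%), and the median difference was -0.21. The summed signal of the list was 1784 on early 1 and 1685 on intermediate 2, against 3121, 2438, 3525 and 2224 on early 2, intermediate 1, late 1 and late 2. Early 2 and late 1 held the highest sums and the 2 Pitx1-high arrays the lowest.

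Col9a1, a chain of cartilage collagen, read 9.22 and 8.66 against 10.32, 10.20, 10.49 and 9.95. Sox6 and Sox5, partners of Sox9 in switching on cartilage matrix, read 5.94 and 6.06 against 7.04, 6.95, 7.56 and 6.59 and, for Sox5, 6.47 and 6.69 against 7.39, 7.17, 7.18 and 7.07. All Sox6 probe sets parted the arrays this way. For Sox5 a second probe set did so, and its remaining probe sets overlapped. Matn4, Acan and Col9a3 were the other 3 lower genes of the list, and Matn3 the 1 that was higher. Sox9 itself lay between 7.99 and 8.64 on all 6 arrays with overlap, and Col2a1, the main cartilage collagen, read 8.15 and 7.61 against 9.03, 7.81, 9.50 and 7.16. In control cultures 0 of the 21 passed in either direction, with a median of 0.23 (limma, same test as above); Col9a1 was at -0.14 ± 0.22. With BMP4 the hindlimb minus forelimb difference of Col9a1 was -0.92 (limma adjusted p = 0.0152) and that of Acan -1.74 (limma adjusted p = 0.000216).

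Some BMP pathway genes were lower on the same arrays. Bmp2, a ligand of the pathway, read 7.65 and 8.06 against 8.74, 8.85, 9.06 and 9.17. Dlx5, a homeobox gene of the ridge and of skeletal precursors, read 6.56 and 6.66 against 7.31, 8.37, 7.55 and 8.36. Dlx5 was lower in hindlimb than in forelimb control cultures, at -0.69 ± 0.15 (SE, limma adjusted p = 0.0339). Its control means were 8.46 in early, 8.61 in intermediate and 9.67 in late arrays. Dlx5 did not pass against distal forelimb alone, so that call rests mainly on the proximal forelimb. The hindlimb minus forelimb difference of Bmp2 was -0.19 (limma adjusted p = 0.877) in control cultures and -1.22 (limma adjusted p = 2.37e-05) with BMP4. Of 18 tested BMP targets and feedback genes, Dlx5, Id4 and the antagonist Nog were lower on both Pitx1-high arrays (16.7% against 8.94%) and 0 were higher.

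Retinoid genes went both ways, with 2 of 12 higher (16.7% against 7.03%) and 3 lower (25% against 8.94%). Crabp1, a retinoic acid binding protein, read 10.30 and 11.05 against 9.56, 9.75, 9.43 and 10.17, and Rarb was given above. Aldh1a1, Rarg and Dhrs3 were lower. Of 19 WNT genes Dkk1, an antagonist, was higher (7.22 and 7.59 against 6.60 to 6.98) and Wif1, another, was lower (7.11 and 6.63 against 7.25 to 8.64). Each is 5.26% of the WNT list, below the shares of 7.03% and 8.94% over all genes. Of 6 anterior genes only Pax9, a paired box factor of the anterior limb, was higher. Its lowest Pitx1-low value was 4.85, its highest was 5.89 and its mean difference was 0.99. That direction rests on its brightest probe set. Another Pax9 probe set parted the arrays the other way, at 4.38 and 4.77 with Pitx1 high against 4.99, 4.94, 5.28 and 5.32. The remaining Pax9 probe set overlapped. None of Crabp1, Rarb, Dkk1, Wif1 and Pax9 passed between hindlimb and forelimb control cultures.

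Cell cycle genes were slightly higher in 3 of 24 members (12.5% against 7.03%), Mcm2 (difference 0.23), Mcm3 (0.17) and Plk1 (0.25), and lower in 0. Immediate early genes, which respond to handling of tissue, were lower in 5 of 18 (27.8% against 8.94%): Fosb, Egr3, Ier3, Nr4a1 and Klf4, which read 9.46 and 9.16 against 10.11, 9.78, 10.34 and 9.47. Fosb, Ier3 and Klf4 were parted by only 0.007, 0.016 and 0.018, although another Klf4 probe set was parted by 0.33. The summed signal of the list overlapped, at 13404 and 15386 with Pitx1 high against 12559 to 17230. The part of immediate early genes in the differences of other genes was not tested. The posterior list gave only Bmp2, lower, out of 12 (8.33% against 8.94%). Nerve, tailbud and endothelial genes gave 0 of 8, 0 of 9 and 0 of 16 in either direction. None of the immediate early or cell cycle genes passed between hindlimb and forelimb control cultures.

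Genes of other cell types varied over the 6 arrays, and not along Pitx1 alone. Skeletal muscle genes were lower on both Pitx1-high arrays in 3 of 20 (15% against 8.94%), Des, Myod1 and Tnnc1, and higher in 0. The other probe set of Des and that of Myod1 overlapped between the sets, and Tnnc1 was parted by only 0.08. Myod1, the factor that commits muscle cells, read 5.69 and 5.55 against 6.85, 5.96, 7.55 and 5.96, while Tnnt1 and Mymk were near the floor on most arrays. The list's summed signal was 1213 and 1084 with Pitx1 high, 2003 and 1969 on early 2 and late 1, and 862 and 1116 on intermediate 1 and late 2. In the labelled cultures 16 of the 20 muscle genes were higher in proximal than in distal forelimb. Among the Pitx1-low arrays muscle signal split as Meis2 did. The Pitx1-high arrays lay nearer to intermediate 1 and late 2 in muscle signal, but with early 2 and late 1 for Meis2. The list also lay lower in hindlimb than in forelimb cultures, with a median difference of -0.98, and 2 of its members were among the 82 genes that passed lower: Chrna1, a subunit of the muscle acetylcholine receptor (-1.58 ± 0.25 SE, limma adjusted p = 0.00367), and Ttn, the sarcomere protein titin (-1.40 ± 0.31 SE, limma adjusted p = 0.037). Against distal forelimb alone, 0 of the 20 muscle genes passed in either direction. Chrna1 averaged 5.93 in early, 6.25 in intermediate and 8.75 in late control arrays. The part of muscle in the proximal minus distal or the hindlimb minus forelimb difference was not tested. Ectoderm genes were lower in 5 of 19 (26.3%), macrophage genes in 3 of 13 (23.1%), somite and body wall genes in 2 of 12 (16.7%) and heart genes in 1 of 8 (12.5%), with 0 higher in each. Their summed signals on the Pitx1-high arrays and over the Pitx1-low arrays were 1454 to 1600 and 1505 to 1827 for ectoderm and 677 to 792 and 752 to 1024 for macrophages. They were 599 to 678 and 626 to 1119 for somite and body wall, and 96.4 to 113 and 116 to 321 for heart. The part of these cells in the results was not tested.

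Red blood cell genes followed the replicate number, and 0 of 9 parted the Pitx1 sets in either direction. Their summed signal was 17978.5, 18120.5 and 16970.5 on early 1, intermediate 1 and late 1, and 7557, 7858 and 9394 on intermediate 2, early 2 and late 2. Alas2, which starts heme synthesis in red cells, read 7.51, 8.25 and 7.51 on the replicate 1 arrays and 4.73, 4.57 and 5.26 on the replicate 2 arrays. A margin of 1 between the replicate numbers held for 7 genes higher in replicate 1, all named here after their values were seen: Alas2, Blvrb, Hemgn, Slc4a1, Hba-x, Car2 and Hbb-bh1. For 1 gene, Asic1, it held in the other direction. Endothelial signal also split this way, at 1851, 1695 and 1837 against 1062, 991 and 1168. Each Pitx1 set holds both replicate numbers. For the 7 genes given above by replicate number, a margin of 1 within either number was fixed by their choice. The part of the replicate number in the day 0 differences was not tested.

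**Figure D5:**
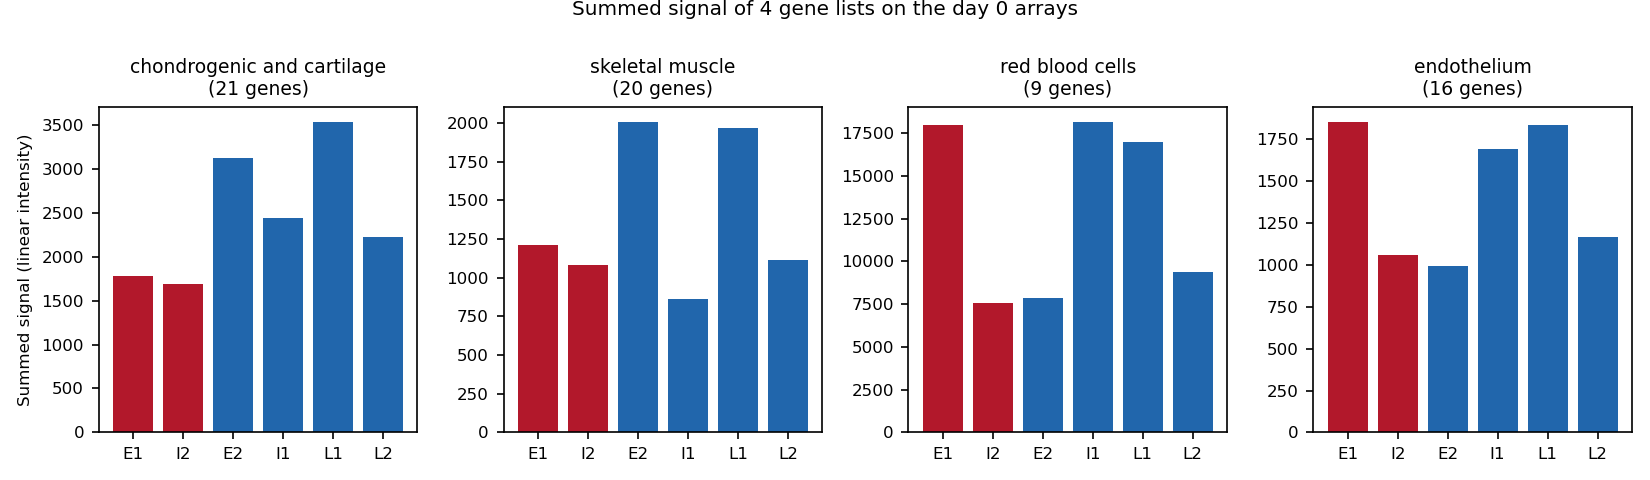
Summed linear signal of 4 gene lists on the day 0 arrays (red Pitx1-high, blue Pitx1-low; names as above), each panel on its own axis from 0. Cartilage signal is lowest on E1 and I2, muscle signal is highest on E2 and L1, and red cell and endothelial signal is highest on the replicate 1 arrays E1, I1 and L1.

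Over all genes the 6 arrays were about as far apart as replicate arrays of the cultures. The number of genes that differed by at least 1 between 2 day 0 arrays ran from 232 (intermediate 1 and late 2) to 511 (early 1 and early 2). The Pitx1-high arrays differed in 349 genes from each other, and early 2 and late 1 in 336. The 3 pairs that share a label differed in 399 to 511 genes, against 183 to 526 (median 372) for the 12 replicate pairs of days 1 and 2. Late 2 was closer to intermediate 1 (232 genes) than to late 1 (430 genes), and early 2 was closer to late 1 (336) than to early 1 (511).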

How the data were processed

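Values were read from the deposited table of 30 Affymetrix Mouse Genome 430 2.0 arrays with 45101 probe sets. They are linear signal intensity from MAS5, per the submitters' processing notes; the sources used here do not give its settings. With no other scaling they entered as log2(signal + 16), so differences of dim genes are understated. A single gene symbol was listed for 34945 of them, several for 932 and none for 9160, and 64 are controls of the array. Probe sets above their array's 40th percentile (signal 20.2 to 30.5) on at least 2 arrays were kept, and each gene was represented by its brightest, for 15139 genes in all. The self-test on simulated data is not quoted.

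At day 0 the arrays were grouped by Pitx1, with no test. Tests used limma 3.58.1 in R 4.3.3 on the 24 arrays of days 1 and 2 (12 group means, 12 residual and 5.2 prior degrees of freedom, mean-variance trend), two-sided, with Benjamini-Hochberg adjustment over all genes and a threshold of 0.05; hindlimb minus forelimb is early minus the mean of intermediate and late, days 1 and 2 averaged. The day 0 test by label used all 30 arrays. Promoters came from a RefSeq table of assembly GRCm38.p6.

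The members, the 24 gene lists (336 genes, 300 tested) and the tests were chosen with earlier results of these data known. Named were the limb type, Meis, Hox and a few other genes, the 12 widest day 0 margins each way, the 8 largest differences each way that passed in 2 of the comparisons, and up to 4 list members with the largest day 0 difference. Other genes that left the 2 sets without overlap, and the genes that follow the replicate number, were named after their values were seen. Alternatives were other pseudocounts, no filter, quantile normalization, all probe sets, a replicate block, single days, BMP4 arrays and leaving out arrays.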

Additional observations from a re-analysis of the deposited data

Results flagged for a closer look

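Among the 4 Pitx1-low arrays, 1 array stood far from the other 3 for 5 of the named genes that were examined (Dixon's test, over 151 genes, with a range of at least 0.5). Chance alone marks about 1 in 20 groups, and 5 of 151 is a smaller share than that. Alx4, an anterior limb factor, read 4.47 on early 2 and 5.80 to 6.06 on the others. Ier3, an immediate early gene, read 8.10 on late 1 and 8.68 to 8.74 on the others. Myl7, a light chain of heart muscle, read 5.80 on late 2 and 4.20 to 4.35 on the others. Mymk, a muscle fusion protein, read 4.94 on early 2 and 4.37 to 4.41 on the others. Tnnt1, a troponin, read 5.22 on late 1 and 4.13 to 4.17 on the others. A signal of 0 reads 4 on this scale, so Myl7, Mymk and Tnnt1 were near the floor on those other arrays.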

How the results depend on the processing

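Genes higher on the Pitx1-high arrays by the margin of 1 numbered 6 (5 without Pitx1) and those lower 2. They were 11 and 28 with a pseudocount of 1, 11 and 6 counted as probe sets, 19 and 43 at a margin of 0.5, 17 and 73 on the 3 replicate 1 arrays, and 39 and 65 on the 3 replicate 2 arrays, the last chosen after seeing the data. Fewer arrays make the margin easier to meet. Leaving out 1 array gave 6 to 17 and 2 to 28. Of the wide-margin genes 6 passed in the cultures (11 as probe sets, 7 with a pseudocount of 1 or BMP4 arrays, 5 on day 2 alone, 4 on day 1 alone or with a pseudocount of 64, 6 without any 1 of 12 arrays).

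Hindlimb against forelimb gave 126 genes, against distal forelimb 166, and proximal against distal forelimb 427. On day 1 alone these were 16, 26 and 136, on day 2 alone 39, 71 and 116, and the first 2 were 1253 and 527 with BMP4 arrays. Leaving out 1 array gave 53 to 137, 78 to 159 and 270 to 364. The first count moved by over 1.5 times without early replicate 1 or 2 of day 1 (64 and 66) or of day 2 (82 and 53), intermediate replicate 1 of day 1 (80), or late replicate 1 of day 1 (83) or day 2 (76). The second did so without early replicate 1 of day 1 or day 2 (78 and 94) or intermediate replicate 1 of day 1 or day 2 (80 and 81), and the third without intermediate replicate 1 of day 1 (280) or late replicate 1 of day 2 (270). Day 0 by label gave 0, then 1 each with a pseudocount of 1, quantile normalization or the block, 8 without the replicate 2 arrays, and 0 to 2 without 1 array (2 without early 2). The cause of these changes was not tested.

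With the replicate number as a block the counts were 261, 323 and 827. Arrays with the same number shared some variation: 55 of 66 pairs of groups correlated above 0.1 (median r 0.164, from -0.002 to 0.35). All 12 groups correlated best with their own number. The main tests do not model this shared variation. Higher genes were 70.3% of the proximal against distal calls, and 58.2% with the block.

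For single genes, Tbx4, Tbx5, Isl1, Hoxc8 and Hoxc10 passed in all 21 settings, Hoxc9 in 19, Hoxd11 in 9, Hoxa10 in 7, and Meis2, Hoxd13 and Il17d in 6. With BMP4 arrays the sign turned, among genes that passed with control or BMP4 arrays, for Shox2 (-0.34), Sox9 (-0.76), Col2a1 (-0.995), Hoxc13 (1.24), Hoxc6 (0.59) and Gdf10 (-1.26). It also turned for genes that passed with neither, among them Hoxc4 (0.52), Hoxc5 (0.48) and Dnajc22 (-0.97). Over all named genes and settings, 127 values lost their call and 17 gained one. Day 0 margins of dim genes depend on the pseudocount.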
